A study of Mus musculus with 10 samples.

Results

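Histone genes encode the proteins around which DNA is wound. The genes described here were taken by symbol from a table of RNA signal per gene: 77 of its 25507 rows matched the histone name patterns, and 68 of these had values. Of the 68, 60 were clustered genes for the core histones (18 for H2A, 17 for H2B, 12 for H3 and 13 for H4) and 8 were variant genes: H1f0, H2aj, H2ax, H2az1, H2az2, H3f3a, H3f3b and H3f3c. GENCODE types H3f3c and, among the clustered, Hist1h2al as processed pseudogenes; both were at 0 in every library and entered no test. The 10 libraries are of mouse tumor cells that the study calls PDAC, for pancreatic ductal adenocarcinoma. Cells were sorted on the surface protein PD-L1, with or without recombinant mouse interferon gamma (IFNγ) beforehand. No IFNγ was given in 4 libraries of cells of any PD-L1 level (untreated all). IFNγ was given in 3 libraries of any level (treated all) and in 3 of cells sorted for a high level (PD-L1 high). The protocol gives 20 hours of stimulation and does not say whether untreated cells were held as long. The strain label reads C57BL/6 for the 7 libraries over all PD-L1 levels and C57BL/7, C57BL/8 and C57BL/9 for PD-L1 high libraries 1, 2 and 3. The labels name no cell line or mouse model, and treated all may itself hold cells with high PD-L1.

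Clustered histone genes are replication-dependent: their mRNAs accumulate in S phase, when new DNA has to be packed, and fall when replication ends. These mRNAs as a rule end in a conserved stem-loop in place of a poly(A) tail, and the stem-loop binding protein SLBP takes them through processing, translation and decay. Variant histone genes lie outside the clusters, are mostly polyadenylated, and supply chromatin through the whole cell cycle. The series' text names a TruSeq RNA kit and total RNA, and does not say how mRNA was selected.

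The stem-loop was looked for in the GENCODE M21 transcripts of GRCm38, the assembly of mm10, as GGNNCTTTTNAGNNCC on the sense strand after the stop codon. It was found in 38 of the 60 clustered genes, 45 of which had at least 30 annotated bases after the stop codon. Of the 8 variants, 1 held it (H2ax), and 61 of 21951 protein-coding genes did (0.278%), a count that includes these histone genes. The hexamer AATAAA lay in the last 40 transcript bases of 11 clustered genes, 5 variants and 68.0% of coding genes. The most frequent loop, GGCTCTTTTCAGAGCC, was found in 21 genes. The sites of the genes whose values are described most closely are shown, with the 16 stem-loop bases in capitals and 5 flanking bases on each side in lower case.
H2ac18: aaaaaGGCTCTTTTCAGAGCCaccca
H2ac19: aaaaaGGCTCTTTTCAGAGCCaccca
H3c15: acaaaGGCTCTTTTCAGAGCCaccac
H2bc8: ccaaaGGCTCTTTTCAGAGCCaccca
H4c8: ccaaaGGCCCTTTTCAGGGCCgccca
H4c9: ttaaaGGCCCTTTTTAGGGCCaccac
H2ax: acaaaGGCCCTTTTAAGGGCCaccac

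The H2ac18 and H2ac19 stretches have the same 26 letters and lie at chr3:96246027-96246052 on the plus strand and chr3:96239779-96239804 on the minus strand. The H3c15 stretch lies at chr3:96238480-96238505 on the minus strand, that of H2bc8 at chr13:23571838-23571863 on the plus strand, and that of H4c8 at chr13:23531453-23531478 on the plus strand. The H4c9 stretch lies at chr13:22040961-22040986 on the minus strand and that of H2ax at chr9:44335235-44335260 on the plus strand. The H2ax site begins 46 bases after the stop codon, and its annotated transcript goes on for 822 bases beyond it. In the clustered H2ac18 only 35 bases follow the stem-loop. In the annotated transcripts of H2bc4 and H2bc21 these letters were not found after the stop codon.

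Promoters could be read from RefSeq (GRCm38.p6) for 46 of the 60 clustered genes, as 250 bases before and 50 after the start. The octamer ATTTGCAT, the site of the Oct-1 factor that is known from H2B promoters, was searched on both strands. It was present in 7 of 12 H2B genes, 6 of 14 H2A genes, 0 of 10 H3 genes, 0 of 10 H4 genes and 1.97% of 27025 genes with a promoter in the table. The box CCAAT, on either strand, was present in all H2A, H2B and H3 genes with a promoter, in 3 of 10 H4 genes and in 41.1% of all genes. The windows of H2ac18 and H2ac19 shared an identical stretch of 219 bases. H2bc8, whose signal moved in both comparisons described, has the following 250 bases before its start (chr13:23571150-23571399, plus strand), with the octamer and the CCAAT boxes in capitals.
H2bc8 promoter: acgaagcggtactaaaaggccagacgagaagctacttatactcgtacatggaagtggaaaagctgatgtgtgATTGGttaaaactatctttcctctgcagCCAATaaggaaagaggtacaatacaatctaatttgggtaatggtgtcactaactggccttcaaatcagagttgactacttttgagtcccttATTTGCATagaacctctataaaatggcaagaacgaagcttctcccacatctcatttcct

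The table's values are normalized signal in a unit that the sources used here do not give. Depth is therefore unknown, and levels are compared between libraries, with no comparison of levels between genes. Library totals were 698396 to 715500. Signal of Cd274, the PD-L1 gene, was 2.58 ± 0.167 (SD, n = 4) in untreated all, 33.0 ± 0.706 (n = 3) in treated all and 47.5 ± 1.17 (n = 3) in PD-L1 high. Of 8 epithelial markers, 7 had a mean signal of at least 1. Their summed signal was 4300 to 4457 in untreated all, 5285 to 5317 in treated all and 4805 to 4867 in PD-L1 high. Of the leukocyte markers, Ptprc reached at most 0.159 and Itgam at most 0.01 in any library, and Cd3e and Adgre1 were at 0. The summed signal of 3 endothelial markers was at most 0.501. Of 5 fibroblast markers, Pdgfra, Pdgfrb and Col1a1 had a mean of at least 1, and the summed signal of the list was 31.7 to 34.6, 21.9 to 24.9 and 19.8 to 20.9 in the groups in that order. Of 4 acinar markers, Cela1 alone reached a mean of 1, while Cpa1 and Prss1 were at 0 throughout. The part of these differences in the histone values was not tested.

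Of the 68 histone genes, 36 reached a mean signal of 1 across libraries and were tested: 29 clustered genes (8 for H2A, 6 for H2B, 7 for H3 and 8 for H4) and 7 variants. Just inside this limit were H2bc18 (mean signal 1.07) and H2ac20 (1.16), and just outside it H2bc3 (0.971) and H4c11 (0.927). H2ac1, H2bc1, Hist1h2al and H3f3c were at 0 in every library. The other 28 untested genes, all clustered, had means of 0.0250 to 0.971 and no single value above 2.71. Of the 36 tested genes, 22 had a mean of at least 1 in all 3 groups, while H2ac20, H3c15 and H3c2 reached it in untreated all alone, so their passing the limit depended on the group in which they were high. Of the others, 8 were under a mean of 1 in PD-L1 high, among them H2ac8, H2bc12, H3c10 and H4c8, and 3 in treated all: H2bc21, H3c1 and H4c12. For these genes a difference was in part built into their being tested, and the counts below include them. Signal was low also among the tested clustered genes: 18 of the 29 had a mean under 2 and 12 were listed at 0 in some library.

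Untreated libraries 3 and 4 stood apart. Of the 64 histone genes above 0, 50 had values with more than 2 decimals, and in these the mean over untreated libraries 3 and 4 was a median of 0.00705, and at most 0.116, away from the mean over libraries 1 and 2 on the log2 scale. The other 14 had values with 2 decimals, and 12 of them were at 0 in both untreated libraries 3 and 4. H2ac10 shows this best: its signal was 8.82, 8.75, 0 and 0 in the untreated libraries, 3.93, 8.73 and 5.02 in treated all, and 7.73, 7.02 and 6.80 in PD-L1 high. Its log2 fold change of treated all against untreated all was 1.08 over all libraries and turned to -0.57 without untreated libraries 3 and 4, and neither was called. The tested genes with 2 decimals were H2ac10, H3c13, H4c12 and Hist1h4m. The spread of the untreated group is thus in part set by how the values were made. Close agreement of the pairs narrows it in the rows with more decimals, where tests may be too liberal, and the zeros widen it in rows with 2 decimals. Calls of members are therefore, in most cases, also given without these libraries.

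The first comparison asks what 20 hours of IFNγ changed in unselected cells. Of the 36 tested histone genes, 20 were called lower in treated cells, while 38.8% of all genes tested were. On the log2(signal + 1) scale, the H2A genes H2ac18 and H2ac19 of chromosome 3 fell by the widest margin. Both calls were lost without untreated libraries 3 and 4. Among variants, H2ax, H2aj and H1f0 fell most. Summed over the 60 clustered genes, signal per library was 180.5, 172.6, 159.6 and 146.5 in untreated all, 92.3, 102.0 and 108.1 in treated all, and 96.2, 89.2 and 112.0 in PD-L1 high. Over the 43 clustered genes with more than 2 decimals the sum was 151.7 ± 5.76 (SD, n = 4), 85.6 ± 3.71 (n = 3) and 84.8 ± 8.63 (n = 3). The 3 treated libraries thus lay below all 4 untreated ones in either sum, and the treated and PD-L1 high libraries overlapped. As RNA of a whole population was measured, fewer cells in S phase and less histone mRNA per cell cannot be told apart.

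Of the 29 clustered genes tested, 15 fell with IFNγ and 14 were not called by limma at an adjusted p under 0.05. That is 51.7% lower, against 38.8% of all 11487 genes tested. None was called higher, while 23.1% of all genes were. At an unadjusted p under 0.05 none was higher and 17 were lower, and the share of all genes at that limit is not given here. The median log2 fold change was -0.55, against -0.07 for all genes. Without untreated libraries 3 and 4, 8 of the 29 were lower, no larger a share than the 29.6% of all genes. These were H2ac8, H2bc21, H2bc4, H2bc8, H3c15, H3c8, H4c12 and Hist1h2ap. In 13 of the 29, every treated value lay below every untreated value, which held for 39.0% of all genes. By class, 4 of 8 H2A, 4 of 6 H2B, 4 of 7 H3 and 3 of 8 H4 genes fell. Scaling the libraries by median ratios moved the median of all genes by 0.075, left 11 clustered genes lower and changed the split of all genes from 23.1% higher and 38.8% lower to 30.8% and 30.2%. With no limit on signal, 57 clustered genes were fitted. Of these 13 were lower, a smaller share than the 26.6% of all genes, and 1 was higher, against 16.0%.

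**Figure D1:**
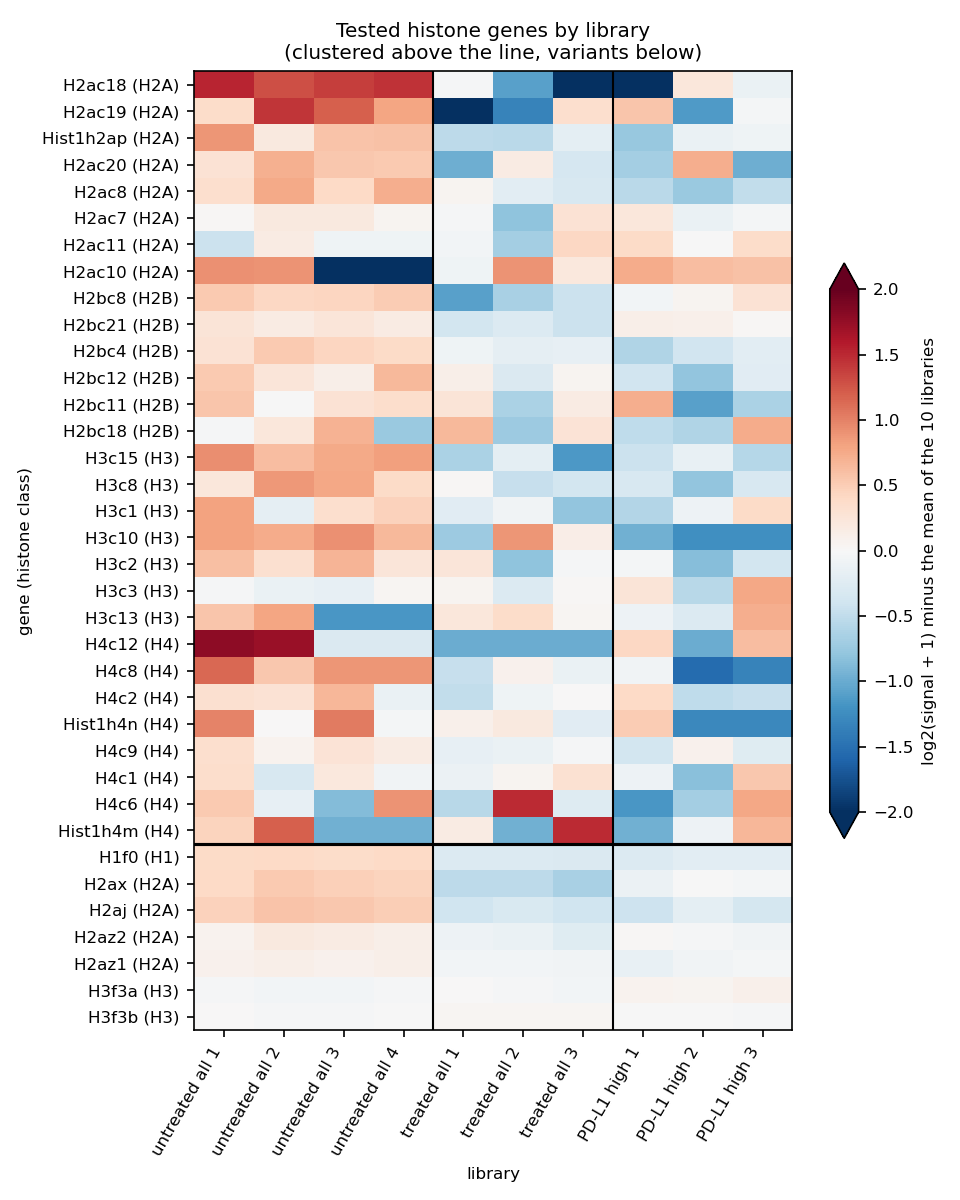
Heat map of the 36 tested histone genes (rows, ordered by class and by fold change of treated all against untreated all) in the 10 libraries (columns), colored by log2(signal + 1) minus the gene's mean over the libraries, with the color scale limited at -2 and 2. Most clustered rows are red (above their mean) in the untreated libraries, and H2ac10, H3c13 and Hist1h4m are red in untreated libraries 1 and 2 and blue in 3 and 4.

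On the log2(signal + 1) scale, which understates changes of low genes, H2A genes held the largest falls. H2ac18 (ENSMUSG00000064220.6, chr3:96245497-96246082, plus strand) had signals of 16.9, 14.2, 15.2 and 15.9 in untreated all, 5.12, 1.93 and 0 in treated all, and 0.530, 6.26 and 4.66 in PD-L1 high. H2ac19 (ENSMUSG00000063954.7, chr3:96239749-96240276, minus strand) had 8.93, 19.7, 16.7 and 12.3, then 0.737, 2.04 and 8.71, then 10.3, 2.53 and 6.53. In both genes the treated and untreated values did not overlap, though for H2ac19 treated library 3 came close to untreated library 1. H2ac18 fell by 2.66 ± 0.70 (SE) and H2ac19 fell by 1.998 ± 0.64 on the log2 scale, with limma adjusted p of 0.0117 and 0.0265. Without untreated libraries 3 and 4 these became 0.0738 and 0.127, and for H2ac19 the call was also lost without any of 5 libraries taken singly.

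The values of these genes cannot be assigned to either with confidence. Their transcripts, of 586 and 528 bases, are identical over 528 aligned bases, and libraries low for one were high for the other, as in treated library 3 (0 and 8.71) and PD-L1 high library 1 (0.530 and 10.3). Added up, an alternative chosen after the values were seen, they gave 25.8, 33.9, 31.9 and 28.2 in untreated all, 5.85, 3.97 and 8.71 in treated all, and 10.8, 8.79 and 11.2 in PD-L1 high. All treated sums lay below all PD-L1 high sums, and these below all untreated ones. However, treated library 3 (8.71) came close to PD-L1 high library 2 (8.79). The sum fell by 2.16 ± 0.20 with IFNγ, with a limma adjusted p of 6.8e-06, and by 2.15 without untreated libraries 3 and 4 (0.000327). From treated all to PD-L1 high it rose by 0.70 ± 0.21 (limma adjusted p = 0.0352), and this call was lost without untreated libraries 3 and 4 (0.0819) and without treated library 1 or 2, untreated library 3 or 4, or PD-L1 high library 1 or 3 taken singly. The other called H2A genes, H2ac8 and Hist1h2ap, fell by 0.71 ± 0.13 and 0.98 ± 0.19. Hist1h2ap shares its coding sequence with Hist1h2ao, and H3c14 with H3c15, Hist1h2bq with Hist1h2br and Hist1h4m with Hist1h4n, so these too are uncertain as single genes.

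H3c15 (chr3:96238108-96239127, minus strand), an H3 gene beside H2ac19, had signals of 3.24, 2.41, 2.75 and 2.90 in untreated all, 0.425, 0.933 and 0 in treated all, and 0.650, 1.003 and 0.486 in PD-L1 high. Every value with IFNγ was below every value without it. It fell by 1.44 ± 0.19 with IFNγ (limma adjusted p = 6.8e-05, and 0.00166 without untreated libraries 3 and 4), but it passed the signal limit through untreated all alone. H3c15, H2ac19 and H2ac18 lie within 7.98 kb. The cluster on chromosome 3 holds 10 of the 60 clustered genes with values, 49 lie on chromosome 13 and 1 on chromosome 6. Of the 7 tested on chromosome 3, 4 fell (median log2 fold change -0.90), as did 11 of the 22 tested on chromosome 13 (median -0.47), against 38.8% of all genes. Of the 4, H2ac18 and H2ac19 lost their calls without untreated libraries 3 and 4. H3c13 and H2bc18, at the far end of the chromosome 3 cluster, had changes of 0.45 and 0.02 that were not called.

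**Figure D2:**
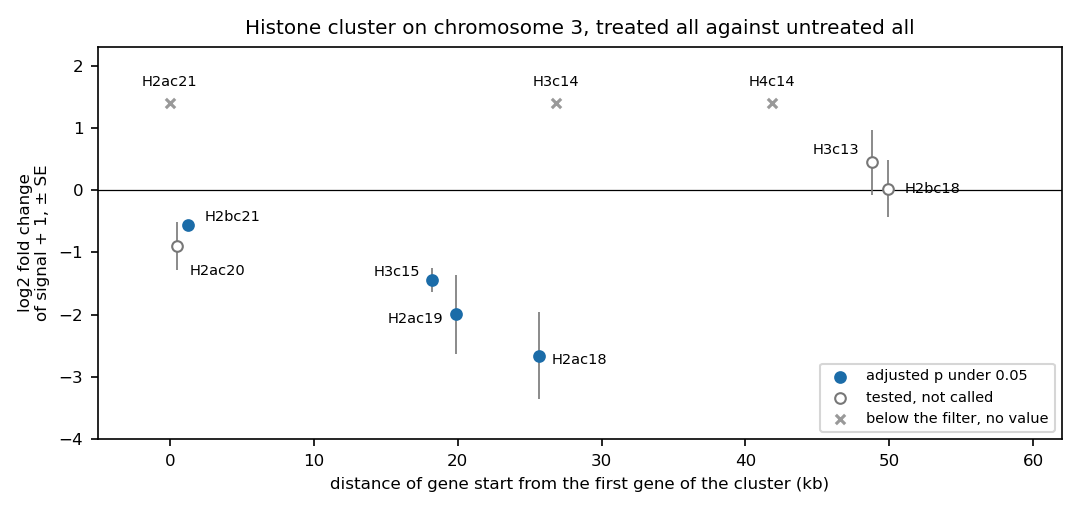
Log2 fold change of signal + 1, treated all against untreated all, with its SE, for the histone genes of chromosome 3 against the distance of their start from the first gene of the cluster in kb. H3c15, H2ac19 and H2ac18, between 18.2 and 25.6 kb, have the lowest values (-1.44, -1.998 and -2.66), and crosses mark 3 genes below the signal limit that have no value.

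Among H2B genes, H2bc4 and H2bc8 are given by library. H2bc4 (chr13:23684199-23692908, plus strand) had 27.5, 32.4, 30.6 and 29.4 in untreated all, 21.04, 19.6 and 19.8 in treated all, and 14.4, 17.0 and 19.2 in PD-L1 high. The 3 groups did not overlap, with PD-L1 high lowest. H2bc4 fell by 0.55 ± 0.08 with IFNγ (limma adjusted p = 0.000177), and its further change of -0.25 ± 0.09 in PD-L1 high was not called (0.0588). H2bc8 (chr13:23571396-23572013, plus strand) had 8.64, 7.98, 8.06 and 8.59, then 2.17, 3.28 and 4.02, then 5.52, 5.99 and 7.23. Here PD-L1 high lay between the other groups, with no overlap. It fell by 1.19 ± 0.13 with IFNγ (1.9e-05) and rose by 0.82 ± 0.14 from treated all to PD-L1 high (0.00210), and both calls held without untreated libraries 3 and 4 (0.000605 and 0.00893).

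H2bc21 (chr3:96221119-96223738, plus strand), whose mouse product H2BE is known from olfactory neurons, also fell and then rose. Its signal was 1.701, 1.54, 1.69 and 1.54 in untreated all, 0.770, 0.880 and 0.688 in treated all, and 1.47, 1.44 and 1.30 in PD-L1 high. The treated values lay below those of both other groups. It fell by 0.56 ± 0.08 (limma adjusted p = 8.2e-05) and rose by 0.43 ± 0.08 (0.00320), calls that held without untreated libraries 3 and 4 (0.00394 and 0.0231). However, H2bc21 passed the signal limit through untreated all and PD-L1 high. Its low treated values were thus in part built into its being tested. H2bc12 fell by 0.42 ± 0.17 with an adjusted p of 0.0491, and was not called without untreated libraries 3 and 4 (0.106).

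H3c8 is a further H3 gene. Its signal was 2.35, 4.22, 3.87 and 2.74 in untreated all, 1.90, 1.07 and 1.22 in treated all, and 1.28, 0.661 and 1.29 in PD-L1 high. Untreated values were higher than all others. H3c8 fell by 0.83 ± 0.18 with IFNγ (limma adjusted p = 0.00231, and 0.0171 without untreated libraries 3 and 4). H3c1 and H3c2 fell by 0.72 and 0.65, each with values that overlapped between groups and a call that was lost without untreated libraries 3 and 4. Both had a treated mean under the signal limit.

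H4 genes encode a single protein from many copies. H4c9 (chr13:22040636-22041362, minus strand) had signals of 24.0, 19.7, 22.8 and 21.1 in untreated all, 16.7, 17.0 and 18.4 in treated all, and 14.4, 19.9 and 15.6 in PD-L1 high. Treated values lay below untreated ones, while PD-L1 high overlapped both. It fell by 0.32 ± 0.10 with IFNγ (limma adjusted p = 0.0167), a call lost without untreated libraries 3 and 4 (0.0750), without treated library 1 or 2 and under median-ratio scaling. H4c8 (chr13:23531050-23531519, plus strand) had 5.45, 3.25, 4.38 and 4.38, then 1.12, 2.09 and 1.67, then 1.79, 0 and 0.161. Its 4 untreated values stood above the 6 others. It fell by 1.03 ± 0.32 (limma adjusted p = 0.0170), a call lost without untreated libraries 3 and 4 (0.0858) and without treated library 1. H4c12, one of the rows with 2 decimals, was listed at 5.92, 5.62, 0.640 and 0.640 in untreated all, at 0 in all 3 treated libraries and at 1.65, 0 and 2.06 in PD-L1 high. It was called lower with IFNγ (limma adjusted p = 0.0422, and 0.000909 without untreated libraries 3 and 4), with no fold given against a group at 0, and the call was lost without any of 6 libraries taken singly. H4c12 passed the signal limit through untreated all and PD-L1 high, so a fall with IFNγ was in part built into its being tested.

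Replicates of the variants lay close together. Of the 7 tested, 5 fell with IFNγ, H3f3b was called higher and H3f3a was not called. Of all genes, 61.9% were called in either direction. Without untreated libraries 3 and 4, the same 5 were called lower, against 29.6% of all genes. Then 0 were called higher, against 17.9%. H2ax, whose product H2A.X is phosphorylated at DNA breaks, had signals of 72.5, 78.9, 76.1 and 74.9 in untreated all, 37.8, 37.6 and 34.5 in treated all, and 50.2, 54.4 and 53.1 in PD-L1 high. The groups did not overlap and PD-L1 high lay in the middle. H2ax (ENSMUSG00000049932.3, chr9:44334694-44336077, plus strand) fell by 1.03 ± 0.04 with IFNγ (limma adjusted p = 5.1e-09) and rose by 0.51 ± 0.05 from treated all to PD-L1 high (2.0e-05). In PD-L1 high it stayed 0.52 ± 0.04 below untreated all on the log2 scale (2.1e-06). These calls of H2ax held without untreated libraries 3 and 4.

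H1f0, the gene of the linker histone H1.0 that is known from non-dividing and differentiated cells, had 283, 286, 281 and 286 in untreated all, 180.1, 179 and 177 in treated all, and 179, 187 and 187 in PD-L1 high. Its values with IFNγ were all far below those without. It fell by 0.67 ± 0.02 (limma adjusted p = 3.5e-10, and 1.6e-07 without untreated libraries 3 and 4). Its change of 0.04 ± 0.02 between treated all and PD-L1 high was not called (0.175). H2aj, an H2A variant gene on chromosome 6 named here after its values were seen, went from 101.9 ± 3.70 (SD, n = 4) to 54.9 ± 2.18 (n = 3) and 56.6 ± 4.56 (n = 3). That was a fall of 0.88 ± 0.05 with IFNγ (7.7e-08), and the 0.04 ± 0.05 that followed was not called (0.625).

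The H2A.Z genes, whose product marks promoters and other regulatory sites, changed less. H2az1 had signals of 914, 935, 913 and 930.3 in untreated all, 823, 830.1 and 818 in treated all, and 778, 814 and 839 in PD-L1 high. H2az2 had 135, 148, 144 and 139, then 119, 118 and 109, then 131, 127 and 122. In both genes all untreated values were above all treated ones, and for H2az2 the PD-L1 high values lay above the treated ones. H2az1 fell by 0.16 ± 0.02 and H2az2 fell by 0.29 ± 0.04 with IFNγ, with limma adjusted p of 0.000106 and 7.7e-05. H2az2 then rose by 0.14 ± 0.04 in PD-L1 high (0.0400), a call that was lost without untreated libraries 3 and 4 (0.0873) and without any of 6 libraries taken singly.

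The genes for H3.3, the H3 form put into chromatin outside replication, kept nearly level values. H3f3a had 591, 583, 578 and 593 in untreated all, 609, 595 and 577 in treated all, and 635, 628 and 644 in PD-L1 high. H3f3b had 1172, 1152, 1152 and 1165, then 1209, 1199 and 1199, then 1160, 1161 and 1147. PD-L1 high was above both other groups for H3f3a, and treated all above both others for H3f3b. H3f3a rose by 0.10 ± 0.02 from treated all to PD-L1 high (limma adjusted p = 0.00774, and 0.0289 without untreated libraries 3 and 4). H3f3b was higher by 0.05 ± 0.01 with IFNγ (0.00574) and lower by 0.06 in PD-L1 high (log2 fold change -0.06, 0.0138), and neither call held without untreated libraries 3 and 4 (0.0757 and 0.0646).

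**Figure D3:**
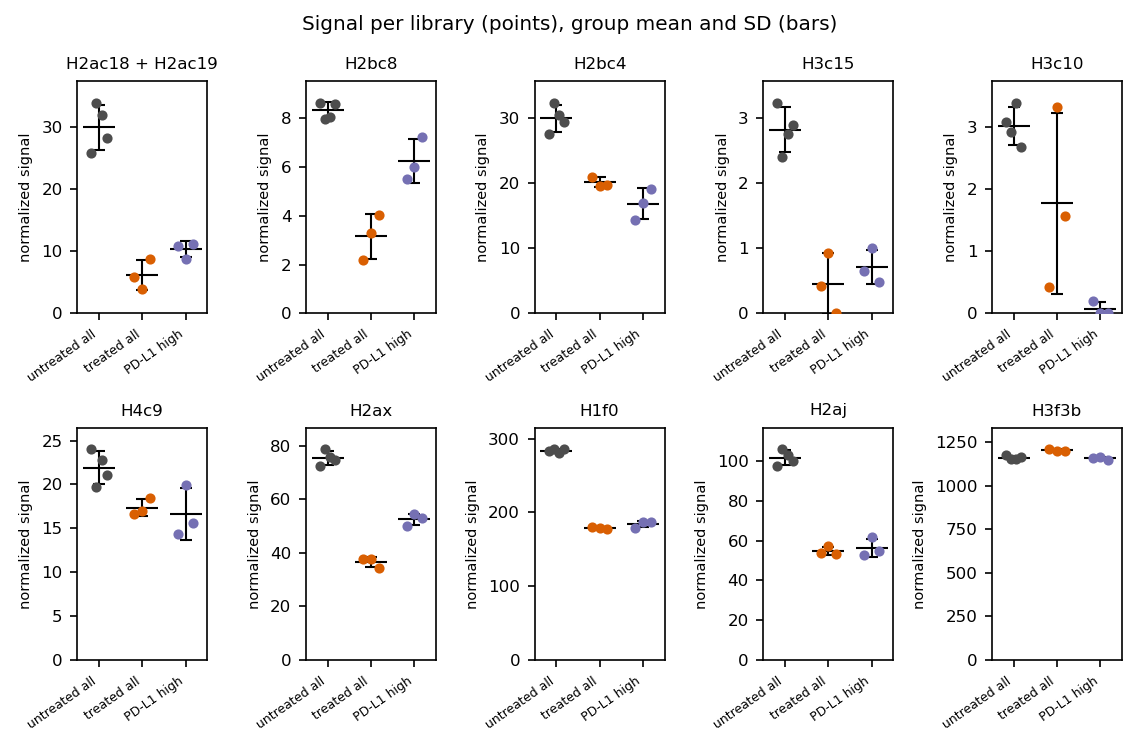
Normalized signal per library (points) with group mean and SD (bars) for the sum of H2ac18 and H2ac19 and for 9 histone genes in untreated all (n = 4), treated all (n = 3) and PD-L1 high (n = 3). All panels start at 0; H2bc8 and H2ax show PD-L1 high between the other groups, H2bc4 shows it lowest, and H3c10 has 2 of 3 PD-L1 high libraries at 0.

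The second comparison asks how cells with high surface PD-L1 differed from treated cells of all levels. It shares its treated libraries with the first comparison, so a chance deviation of these libraries would move both in opposite directions. H2bc8 and H2bc21, described above, rose in PD-L1 high cells, H3c10 fell and the other 26 of the 29 clustered genes were not called. That makes 10.3% called, against 25.6% of all genes tested (11.5% higher and 14.1% lower). The median log2 fold change was -0.07, against -0.01 for all genes. At an unadjusted p under 0.05 there were 2 clustered genes higher and 5 lower, with no share of all genes given at that limit. Every PD-L1 high value lay below every treated value in 3 of the 29, against 20.7% of all genes, and above in 2, against 17.4%. Without untreated libraries 3 and 4 the same calls, 2 higher and 1 lower, stood against 7.69% and 8.78%. With no limit on signal, 3 clustered genes were higher and 3 lower, against 7.13% and 8.34%. H3c10 (chr13:21717659-21718069, plus strand), an H3 gene, had signals of 3.07, 2.92, 3.38 and 2.67 in untreated all, 0.417, 3.31 and 1.57 in treated all, and 0.199, 0 and 0 in PD-L1 high. The treated libraries spanned nearly the whole range, and PD-L1 high lay below them all. The fall of 1.24 ± 0.31 was called (limma adjusted p = 0.0152, and 0.0431 without untreated libraries 3 and 4), but not when these groups alone were fitted. H3c10 passed the signal limit through untreated all and treated all, so this fall was in part built into its being tested. With IFNγ against untreated all it was not called (-0.68 ± 0.29, 0.0639).

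Of the 7 variants, H2ax, H2az2 and H3f3a were called higher and H3f3b lower in PD-L1 high cells, that is 57.1%, against 25.6% of all genes. Without untreated libraries 3 and 4, H2ax and H3f3a were called, against 16.5% of all genes. H1f0, H2aj and H2az1 were not called.

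**Figure D4:**
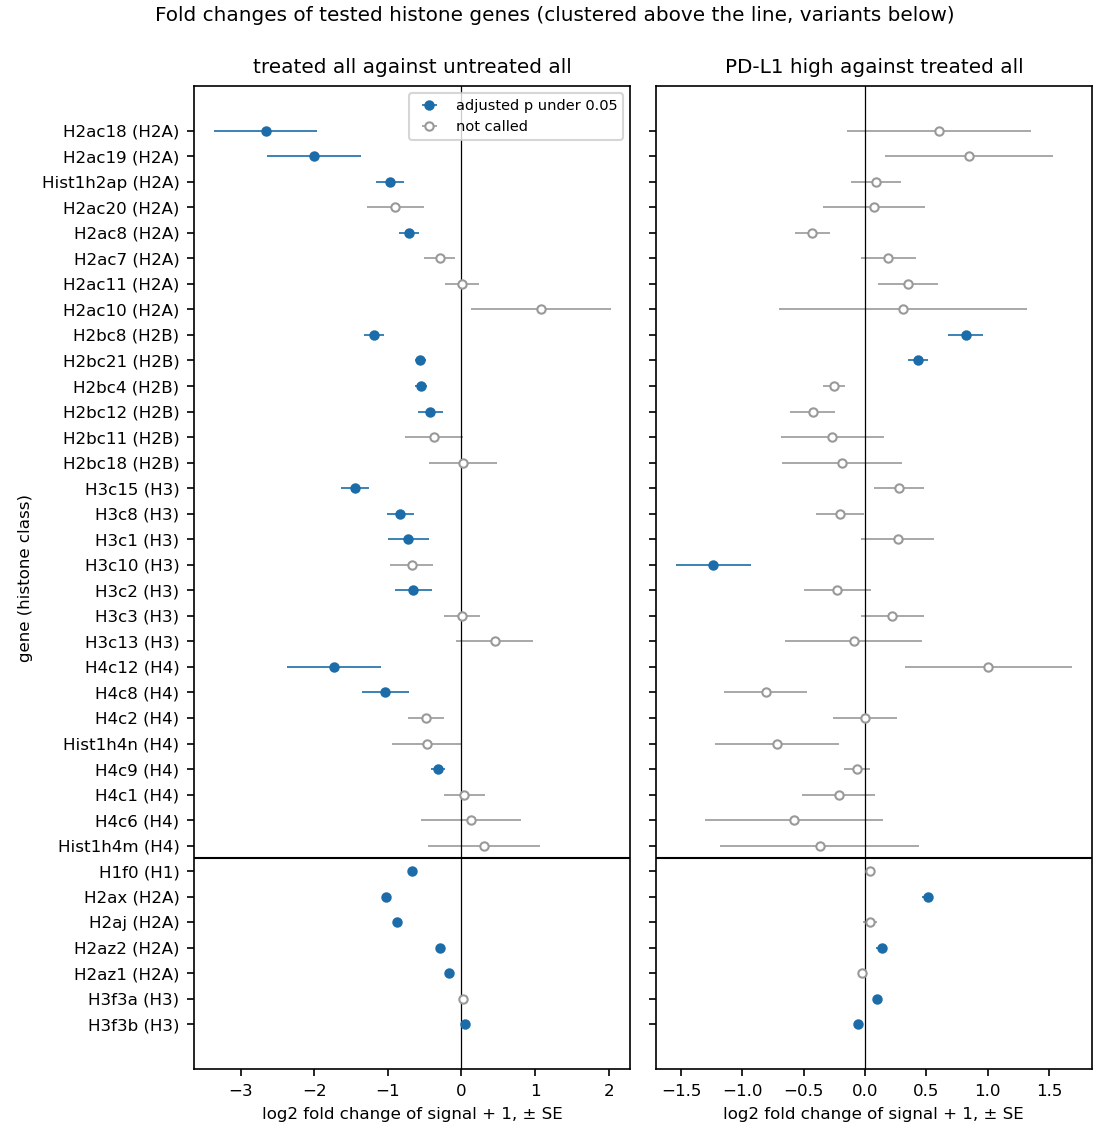
Log2 fold change of signal + 1 with its SE for the 36 tested histone genes, for treated all against untreated all (left) and PD-L1 high against treated all (right); filled points have an adjusted p under 0.05. On the left 15 clustered genes and 5 variants are filled below 0; on the right H2bc8, H2bc21 and 3 variants are filled above 0 and H3c10 and H3f3b below.

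Set against untreated all directly, PD-L1 high cells had 12 of 29 clustered genes lower (41.4%), close to the 41.0% of all genes. None was called higher, against 19.1% of all genes. None was higher at an unadjusted p under 0.05 either, a limit at which no share of all genes is given. Among the 12, H3c10 was lower by 1.91 ± 0.29 (log2 fold change -1.91, limma adjusted p = 0.000240) and H4c8 by 1.84 ± 0.32 (log2 fold change -1.84, 0.000685). Both calls held without untreated libraries 3 and 4. Both genes had a PD-L1 high mean under the signal limit, so these falls were in part built into their being tested. The 5 variants that fell with IFNγ were also called lower here, and H3f3a was called higher (0.12 ± 0.02, 0.000557), against 60.1% of all genes called. The call of H2az2 was lost under median-ratio and upper-quartile scaling, where 2 variants were higher and 4 lower. In 12 clustered genes every PD-L1 high value lay below every untreated value, against 41.8% of all genes. Without untreated libraries 3 and 4, 10 clustered genes were lower, against 29.6% of all genes. With no limit on signal, 17 were lower and 2 higher, against 27.3% and 13.7%.

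The clustered genes were also counted by whether the annotated transcript held the stem-loop. Of the 20 tested clustered genes with it, 11 fell with IFNγ (median log2 fold change -0.56), and of the 9 without it 4 did (median -0.55), against 38.8% of all genes. Of these 9, 5 had an annotated stretch of at least 30 bases after the stop codon, and 3 of the 5 fell. From treated all to PD-L1 high, 1 of the 20 and 1 of the 9 rose, against 11.5% of all genes, and 0 of the 20 and 1 of the 9 fell, against 14.1%. H2ax, the variant with the stem-loop, changed most among the variants in both comparisons.

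Genes that surround histone supply were counted from lists made with earlier results of these data known, and are to be read against the 23.1% of all genes higher and 38.8% lower with IFNγ, and the 11.5% and 14.1% in PD-L1 high against treated cells. Of 6 tested histone genes outside the name patterns, 5 fell with IFNγ: Cenpa, H1f2, H1f10, H2aw and Macroh2a1, the last named after its value was seen. Cenpa, the centromeric H3 variant, fell by 0.77 and then rose by 0.25 in PD-L1 high. The linker histone genes H1f2 and H1f10 fell by 0.59 and 0.63, and of these H1f10 rose again, by 0.34. H2aw fell by 0.51, and its later rise of 0.35 (limma adjusted p = 0.0270) was lost without untreated libraries 3 and 4 (0.0703). Hjurp, the chaperone that loads Cenpa, fell by 0.77 and rose by 0.30, with limma adjusted p of 1.0e-07 and 0.00136.

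Of 17 tested genes for histone mRNA transcription, processing and decay, 1 rose and 10 fell with IFNγ (median log2 fold change -0.20), against 23.1% and 38.8% of all genes. With untreated libraries 3 and 4 left out, 0 rose and 8 fell, against 17.9% and 29.6%. Srrt, a partner of the cap-binding complex in histone mRNA processing, fell by 0.60, the cap-binding subunit gene Ncbp2 by 0.47 (log2 fold change -0.47), and Sympk and Upf1, of the cleavage complex and of mRNA decay, had changes of -0.36 and -0.31, also called. Slbp, named after its values were seen, went from 99.1 to 86.5 and 84.2 in mean signal and fell by 0.19 with IFNγ (limma adjusted p = 0.00117). In PD-L1 high cells Srrt rose by 0.13, Npat, a coactivator of clustered histone genes, fell by 0.22 and Upf1 fell by 0.14, while 14 of the 17 were not called. The calls of Npat (0.0995) and Upf1 (0.0920) were lost without untreated libraries 3 and 4. Of 23 histone chaperones, 4 rose and 12 fell with IFNγ, against 23.1% and 38.8% of all genes, and 3 rose and 8 fell without untreated libraries 3 and 4. Daxx, a chaperone of H3.3, rose by 0.73 and Chaf1b, of the replication-coupled complex CAF-1, rose by 0.51, while Anp32e, which removes H2A.Z, fell by 0.47. Chaf1b fell by 0.40 in PD-L1 high, as did Nasp and Rbbp7, each by 0.16, and in all 1 chaperone rose, 7 fell and 15 were not called, against 11.5% and 14.1% of all genes. In the fit lacking untreated libraries 3 and 4, 1 rose and 3 fell.

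Cell cycle genes were counted in the same way. Of 34 genes of DNA replication and S phase, 9 rose, 13 fell and 12 were not called with IFNγ (median log2 fold change -0.08), shares close to the 23.1% and 38.8% of all genes. Leaving out untreated libraries 3 and 4 gave 7 that rose and 12 that fell. Among those with the smallest adjusted p, Tk1 fell by 0.45, Rrm2 by 0.37 (log2 fold change -0.37), Rrm1 by 0.36 (-0.36) and the polymerase gene Pold1 by 0.64 (-0.64). The 9 that rose included Ung (log2 fold change 0.98), Cdc6 (0.40) and Mcm6 (0.12), named after their values were seen. In PD-L1 high 3 rose and 16 fell (median -0.11), against 11.5% and 14.1% of all genes, and 2 rose and 9 fell without untreated libraries 3 and 4, with Cdt1 at -0.36, Mcm4 at -0.28, Mcm6 at -0.23 and Cdc6 at -0.41. Of 24 genes of G2 and mitosis, all 24 fell with IFNγ (median -0.98) and all 24 rose from treated all to PD-L1 high (median 0.45), 23 of them without untreated libraries 3 and 4, as with Plk1 (-1.34 and 0.67) and Ube2c (-1.13 and 0.62). Clustered histone genes had 15 of 29 lower in the first comparison and 2 higher in the second. The relation of the histone values to cell cycle phase was not tested.

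**Figure D5:**
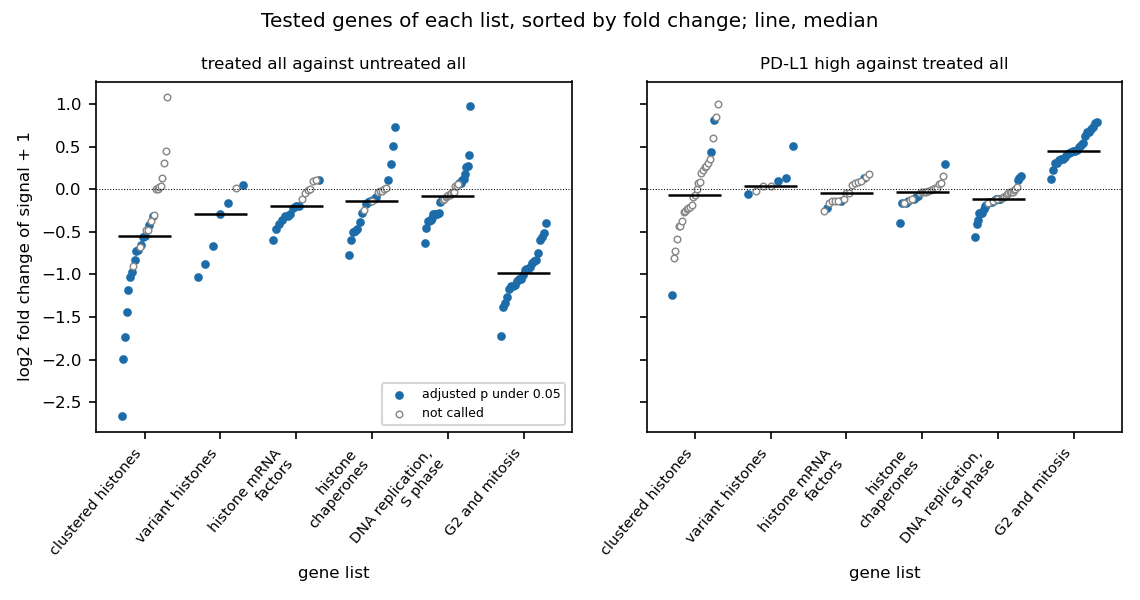
Log2 fold change of signal + 1 of every tested gene in 6 lists, sorted within each list, with the median as a line, for treated all against untreated all (left) and PD-L1 high against treated all (right). Medians of G2 and mitosis genes are -0.98 and 0.45, those of clustered histone genes -0.55 and -0.07, and those of S phase genes -0.08 and -0.11.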

How the data were processed

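Per the submitters' processing notes the files involved CASAVA 1.7 and mm10; the sources used here name no aligner, counting tool, annotation or unit. What the authors deposited is normalized signal for 25507 rows, with 10 library columns; their group means were left out. It holds no counts, so count models were not used and depth cannot be given. Where a symbol occurred in several rows (52 symbols), these were summed. The 11487 genes with mean signal 1 or more were tested as log2(signal + 1), which understates changes of low genes, with limma 3.58.1 in R 4.3.3 (trend, robust variances, all 10 libraries). Benjamini-Hochberg adjustment ran over all tested genes, with calls made below an adjusted p of 0.05. A simulation run for the model left out the pattern of untreated libraries 3 and 4, and its outcome is not given here. It is not taken as a check on the clustered genes, which were mostly low. Of the 29 tested, 18 had a mean signal under 2 and 12 were listed at 0 in some library. No label states that replicates are separate cultures: the p-values reflect the spread among these libraries alone, possibly technical.

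The members, lists and tests were chosen with earlier results of these data known. Values per library are given for the member with the highest mean in each histone class (a choice for display), for up to 6 called members with the largest rise or fall per comparison, and for H2ac18 and H3c10. Per list, up to 4 called genes of the smallest adjusted p are named. All 68 members were placed on GENCODE M21 through RefSeq symbols, older symbols and overlap. Alternatives changed the scaling, the signal limit, the pseudocount, the threshold, the variance model and the libraries, or added a replicate block. One marker gene is not reported here. Figures were drawn with matplotlib 3.10.9.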

Additional observations from a re-analysis of the deposited data

How the results depend on the processing

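Counts of clustered histone genes depended on the limits. Shares of all genes under most of the settings in this section are not given. The counts therefore show only how calls of members moved with the settings. Lower with IFNγ were 15 genes: 5 with a minimum mean signal of 5 (where 6 were tested), 7 at an adjusted p under 0.01, 8 without untreated libraries 3 and 4, 9 with identical copies also summed (chosen after seeing the data), and 10 to 15 leaving out each library. Without a signal filter, 1 was higher. In PD-L1 high against treated all, 2 were higher (1 at the minimum of 5, and 2 to 3 leaving out each library). There 1 was lower, against 3 without a filter, 2 with a pseudocount of 0.1 or with copies summed, and 0 at the minimum of 5, at 0.01 or with only these groups fitted. Leaving out each library gave 1 to 3, with 2 or 3 without untreated library 1 or 2, treated library 3 or PD-L1 high library 1 or 3. Of the variants, 4 changed there, 2 at 0.01, without trend and robust variances or without untreated libraries 3 and 4 (copies summed or not), and 3 to 4 leaving out each library. With IFNγ, 6 variants changed in every fit that left out 1 library. Against untreated all, PD-L1 high had 12 clustered genes lower (4 at the minimum of 5, 10 to 13 leaving out each library), none higher (2 without a filter, 0 to 1 leaving out each library) and 6 variants changed in every fit that left out 1 library.

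Same-numbered libraries of different groups correlated at -0.181 to 0.104 (median 0.012, 9 pairs) in their deviations. Different-numbered ones correlated at -0.115 to 0.168 (median -0.017, 24 pairs). Between treated all and PD-L1 high the same-numbered pairs were at 0.023, 0.104 and 0.046, and the others at 0.022 or below. With so few libraries per group, these values cannot show whether the numbers pair the libraries. With a replicate block, 11 clustered genes were lower with IFNγ. In that fit 2 were higher and 1 lower between PD-L1 high and treated all, and 12 lower against untreated all. Over 49 values of called members, 879 of 1011 checks kept the call, 132 lost it and 0 reversed, and the cause of each loss was not tested. The unknown depth limits what can be said of members near a signal of 1.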
